A study of Xenopus tropicalis with 31 samples.

Results

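*dlx3* and *dlx5* encode homeodomain transcription factors of the Distal-less family and lie on chromosomes 10 and 6 of *Xenopus tropicalis*. In genome version 10.0, *dlx3* spans 14661908 to 14670732 (8825 bp) and *dlx5* spans 33921606 to 33926545 (4940 bp). Every peak or region that reached within 20 kb of either gene body was taken from 16 lists of a chromatin immunoprecipitation sequencing (ChIP-seq) series, which gave 49 of the 190255 regions in those lists. Of the 49, 11 belong to *dlx3* (5 Foxi2 or Sox3 peaks, 3 Ep300 peaks and 3 histone regions) and 38 to *dlx5* (25, 10 and 3). *dlx3* had a region in 9 of the 16 lists and *dlx5* in 14.

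Vertebrate Dlx genes sit in linked pairs, and the windows here reach the partner of each gene: *dlx4* lies 18044 bp from *dlx3*, and *dlx6* lies 9440 bp from *dlx5*. Dlx factors act downstream of BMP signalling in the nonneural ectoderm, where they take part in forming epidermis, the neural plate border and placodes. Ep300 is a histone acetyltransferase that DNA-bound factors bring to enhancers. H3K27ac marks active enhancers and promoters, and H3K27me3 is the mark laid down by Polycomb complexes on repressed developmental genes.

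The labels place 31 samples in 19 groups, all from wild-type *X. tropicalis* stock. Whole embryos served for the maternal factors Foxi2 and Sox3, at stage 8 (mid-blastula), stage 9 (late blastula) and stage 10.5 (early gastrula). Ep300 was profiled in FS morphant ectoderm and endoderm and in wild-type ectoderm and endoderm at stage 10.5, and in a separate experiment, called the first here, in wild-type ectoderm and endoderm. H3K27ac and H3K27me3 were profiled in ectoderm and endoderm of the same stage, with 1 library per tissue for H3K27ac and 2 for H3K27me3. FS morphants are embryos injected in the animal cap at the 1- to 2-cell stage with translation-blocking morpholinos against Foxi2 and Sox3, and no list from embryos given a control morpholino was analysed here. The extraction text in the labels names an antibody against VegT for every sample, and the titles were followed instead. The tissue labels of the H3K27ac lists were checked with gene markers, and those of the Ep300 and H3K27me3 lists were not. An ectoderm super-enhancer (SE), a stitched H3K27ac region above the cutoff used by the authors, covered 5 of 6 ectoderm marker genes and 0 of 7 endoderm markers, and an endoderm SE covered 0 of 6 and 6 of 7. Over all genes, an ectoderm SE covered 15.1% and an endoderm SE 8.2%. Input DNA of whole embryos, ectoderm and endoderm makes up the other 3 groups, which have no list of their own here. Each of the 16 ChIP groups is represented by 1 list, made after the authors merged any replicates, so the spread between replicates is unknown and no difference below was tested. Read depth is not carried by the lists and is unknown.

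Overlapping Foxi2, Sox3 and Ep300 peaks were merged into elements, 3 at *dlx3* and 8 at *dlx5*, and each was named by the distance in kb from the lower-coordinate end of the gene to its strongest summit. The strand was not used, so this end need not be the transcription start. Strength is given as the fold enrichment of ChIP over input, and as a rank by −log10 p within the list, since the lists differ in length. The *dlx5* elements lie mainly on the side of *dlx6*. The −18.9 kb (33902493 to 33902876), −17.6 kb (33903539 to 33904747) and −15.1 kb (33906289 to 33907144) elements overlap the long noncoding RNA gene LOC116411699. The −13.2 kb (33908207 to 33908512) and −12.6 kb (33908777 to 33909536) elements lie in *dlx6*, and the −8.7 kb element (33912603 to 33913425) lies between *dlx6* and *dlx5*. The −0.3 kb (33920282 to 33922033) and +5.1 kb (33926386 to 33926908) elements each overlap an end of *dlx5*. At *dlx3*, the −5.9 kb element (14655804 to 14656151) overlaps no annotated gene, whereas the +5.1 kb (14666487 to 14667545) and +7.1 kb (14668855 to 14669353) elements lie inside the gene body.

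**Figure D1:**
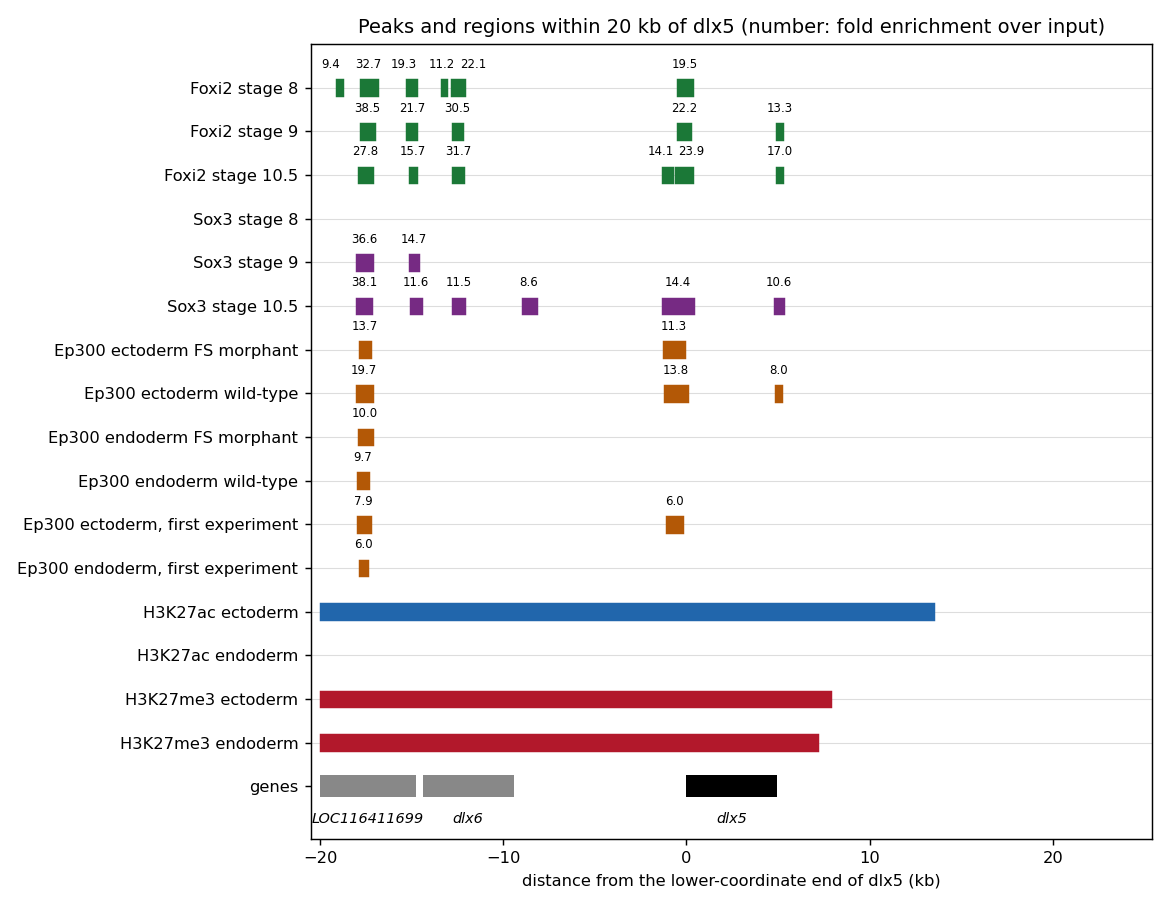
Map of all 38 peaks and regions within 20 kb of *dlx5*, 1 row per list, against distance in kb from the lower-coordinate end of the gene; bars span each peak, numbers above them are fold enrichments over input, filled histone bars are regions above the authors' cutoff, and bars are clipped at the 20-kb limit. The −17.6 kb element has a peak in 11 of the 12 peak lists, and no endoderm H3K27ac region is present.

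**Figure D2:**
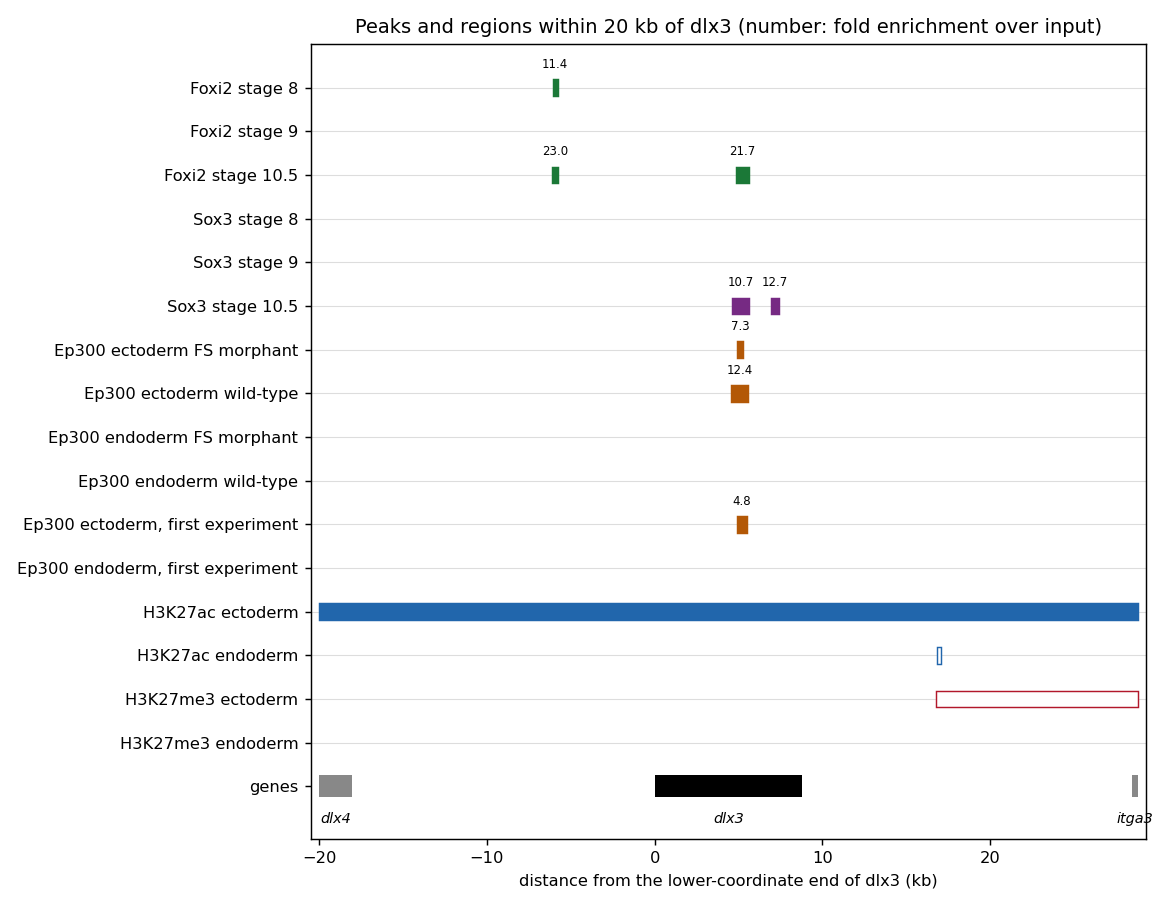
The same map for the 11 peaks and regions within 20 kb of *dlx3*; open bars are histone regions below the authors' cutoff. Ep300 is present at the +5.1 kb element in the 3 ectoderm lists and in none of the 3 endoderm lists.

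In these lists, Foxi2 was at *dlx5* from the earliest stage and at several elements. For *dlx5*, 6 Foxi2 peaks were listed at stage 8, with 5 at stage 9 and 6 at stage 10.5, where 33.8%, 21.9% and 18.9% of 28772 annotated genes had any Foxi2 peak within 20 kb. Only 1.16% of genes had 6 or more at stage 8. *dlx3* had 1, 0 and 2 Foxi2 peaks at these stages. The Foxi2 peaks of *dlx6* are those of *dlx5*, because the 20-kb windows of the 2 genes hold the same peaks. The −18.9, −17.6, −15.1, −13.2, −12.6 and −8.7 kb elements lie nearer to *dlx6* than to *dlx5*, or inside *dlx6*. Within 10 kb, *dlx5* had 1, 2 and 3 Foxi2 peaks at stages 8, 9 and 10.5. Which gene any element acts on was not tested.

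Of the 8 *dlx5* elements, 4 held Foxi2 at all 3 stages, a class that makes up 17.6% of 16392 merged Foxi2 regions. The −17.6 kb element had the highest fold enrichment at stages 8 and 9, with fold enrichments of 32.7 at stage 8, 38.5 at stage 9 and 27.8 at stage 10.5. Its rank was 701 of 13158, 795 of 6668 and 1329 of 6039, so it was always in the stronger part of the list. The −12.6 kb element in *dlx6* had 22.1, 30.5 and 31.7, the highest of the *dlx5* elements at stage 10.5. The −15.1 kb element had 19.3, 21.7 and 15.7, the lowest of these at stage 10.5. The −0.3 kb element, at the end of *dlx5* that faces *dlx6*, had 19.5 and 22.2 at stages 8 and 9. At stage 10.5 it held 2 neighbouring Foxi2 peaks, of 23.9 and 14.1, and the weaker lay farther from the gene.

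The remaining Foxi2 peaks were stage-restricted and mostly weaker. Stage 8 alone marked the −18.9 kb (9.36) and −13.2 kb (11.2) elements, both under the stage 8 list median of 14.6, and such stage 8-only regions make up 43.1% of all Foxi2 regions. The *dlx5* +5.1 kb element was bound at stages 9 and 10.5 (13.3 and 17.0), a class of 2.34% of regions, and lay below the list median at both stages (20.1 and 23.2). At *dlx3*, the −5.9 kb element had 11.4 at stage 8 and 23.0 at stage 10.5 with no stage 9 peak, a class of 3.21%. The +5.1 kb element in the *dlx3* body had a Foxi2 peak at stage 10.5 alone, of 21.7. Both *dlx3* Foxi2 peaks of stage 10.5 were near the list median of 23.2 in fold enrichment and in the weaker part of the list by −log10 p, at ranks 4009 and 3903 of 6039.

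Within 20 kb, Sox3 was first listed later than Foxi2 at both genes. For *dlx3* this depends on the choices made: within 50 kb it had 2 Foxi2 peaks and 1 Sox3 peak at stage 8, and in the stronger 50% of each list it had 0 Foxi2 peaks at every stage and 1 Sox3 peak, at stage 10.5. Within 20 kb, neither gene had a Sox3 peak at stage 8, when 21.5% of genes had one. At stage 9, *dlx5* had 2 and *dlx3* had 0 (15.7% of genes had any). By stage 10.5, *dlx5* had 6 Sox3 peaks and *dlx3* had 2, when 40.1% of genes had at least 1 and 1.54% had at least as many as *dlx5*. The stage 8 list differs from the later Sox3 lists: its median −log10 p was 32.2, against 128 at stage 9 and 77.2 at stage 10.5, and 31.7% of its 5827 peaks overlapped a Sox3 peak of either later stage. The part of this list in the absence of Sox3 peaks at stage 8 was not tested. The paper reports, from ChIP with quantitative PCR on cleavage-stage embryos, that both factors already occupied a regulatory region of *dlx5*. Which element that region matches was not examined here. The order of first listing therefore does not show that Sox3 reached *dlx5* after Foxi2.

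The −17.6 kb element of *dlx5* was among the strongest Sox3 sites in the genome. Its fold enrichment was 36.6 at stage 9 (−log10 p of 407, rank 38 of 4401) and 38.1 at stage 10.5 (−log10 p of 492, rank 28 of 14648), against list medians of 17.96 and 12.02. The −15.1 kb element was the other Sox3 site of stage 9, with 14.7, and had 11.6 at stage 10.5. The 4 Sox3 peaks that *dlx5* had at stage 10.5 alone ranged from 8.58 at −8.7 kb, the only element with Sox3 and no other peak near *dlx5*, to 14.4 at −0.3 kb. Those at −12.6 kb (11.5) and +5.1 kb (10.6) lay between. Both *dlx3* Sox3 peaks were also of stage 10.5 alone, a class of 51.6% of 18901 merged Sox3 regions: 10.7 at +5.1 kb and 12.7 at +7.1 kb. The −17.6 kb element therefore had about the same Sox3 enrichment at both stages, while every other Sox3 peak of the 2 genes had 14.7 or less.

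**Figure D3:**
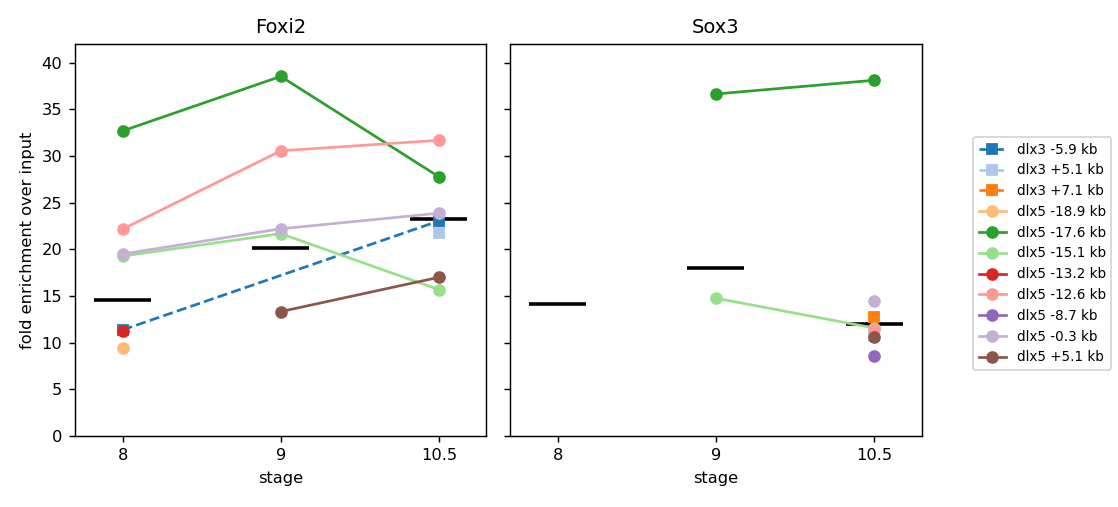
Fold enrichment over input of Foxi2 (left) and Sox3 (right) at stages 8, 9 and 10.5, 1 colour per element, circles for *dlx5* and squares for *dlx3*; a missing point means no peak in that list, the stronger peak is drawn where an element holds 2, and black bars are list medians. The *dlx5* −17.6 kb element lies above the list median at every stage where it has a peak, reaching 38.5 for Foxi2 and 38.1 for Sox3.

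Foxi2 and Sox3 summits nearly coincided where both factors were bound at stage 10.5. The distance between them was 16 bp at *dlx5* −17.6 kb, 25 bp at −15.1 kb, 23 bp at −12.6 kb, 32 bp at *dlx5* +5.1 kb and 20 bp at *dlx3* +5.1 kb. The median over all 4866 overlapping Foxi2 and Sox3 pairs was 27 bp. The −0.3 kb element differed: its broad Sox3 peak had its summit 962 bp from the gene, 81 bp from the weaker Foxi2 summit and 628 bp from the stronger, and 2.59% of pairs were at least 628 bp apart.

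At the −17.6 kb element the Foxi2 summit differed in position between stages. It lay 17370 bp from the gene end at stage 8 and 17401 bp at stage 9, and then 17630 bp at stage 10.5. The stage 8 and stage 10.5 summits were 260 bp apart, against a median of 15 bp over 3505 overlapping pairs, 4.39% of which were at least as far apart. The Sox3 summit was at 17635 bp at stage 9, 234 bp from the Foxi2 summit of that stage, and at 17646 bp at stage 10.5. The wild-type ectoderm Ep300 summit, at 17627 bp, was 3 bp from the Foxi2 summit of stage 10.5. The Foxi2 summit of the gastrula thus stood at the position of Sox3 and Ep300, and the Foxi2 summits of both earlier stages did not. A neighbouring element showed a smaller shift: at −15.1 kb the stage 8 and stage 10.5 Foxi2 summits were 185 bp apart, and 4.96% of pairs were at least as far apart. The −12.6 kb (46 bp), −0.3 kb (8 bp, the peak nearer the gene) and *dlx3* −5.9 kb (3 bp) summits were closer together.

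Ep300 occupied 4 of the 11 elements in wild-type ectoderm, and each of the 4 also held Foxi2 and Sox3 at stage 10.5. Such peaks are called FSE peaks. *dlx3* had 1, at +5.1 kb, and *dlx5* had 3, at −17.6, −0.3 and +5.1 kb. Of all 5552 wild-type ectoderm Ep300 peaks, 52.4% were FSE peaks. Any wild-type ectoderm Ep300 peak lay within 20 kb of 17.9% of genes, an FSE peak of 9.78%, and 3 or more FSE peaks of 1.18%. Fold enrichment was 19.7 at *dlx5* −17.6 kb (rank 169), 13.8 at *dlx5* −0.3 kb (rank 953), 12.4 at *dlx3* +5.1 kb (rank 1609) and 7.95 at *dlx5* +5.1 kb (rank 2961). The first 3 are above the list median of 8.76 and the last is below it. Binding of both factors was not always accompanied by Ep300: the −15.1 and −12.6 kb elements of *dlx5* held Foxi2 and Sox3 at stage 10.5 and had no Ep300 peak in any of the 6 lists. Co-bound sites without Ep300 in wild-type ectoderm are common and not particular to *dlx5*. Over the genome, 4866 Foxi2 and Sox3 pairs overlapped at stage 10.5, beside 2909 FSE peaks in wild-type ectoderm. These counts are of pairs and of Ep300 peaks, so they give no exact share. Sites without Ep300 in all 6 lists were not counted. The paper likewise reports many co-bound regions without ectoderm Ep300.

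The first Ep300 experiment, with 1 library per tissue and weaker peaks, gave the same elements except the weakest. Ectoderm fold enrichments there were 7.86 at *dlx5* −17.6 kb (rank 68 of 5840), 6.05 at *dlx5* −0.3 kb and 4.81 at *dlx3* +5.1 kb, each above the list median of 3.54. The order of the 3 was that of the second experiment, and all 3 were FSE peaks, which 9.22% of genes had in this list (20.1% had any ectoderm peak of the first experiment). The *dlx5* +5.1 kb peak was not among them, and 68.8% of wild-type ectoderm peaks of the second experiment overlapped a peak of the first.

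In FS morphant ectoderm, *dlx3* had 1 Ep300 peak and *dlx5* had 2, against 1 and 3 in wild-type ectoderm, and 13.9% of genes had a morphant peak. In dissected tissue, fewer cells with Ep300 at a site cannot be told apart from less Ep300 per cell. The *dlx5* +5.1 kb peak, 7.95 in wild-type ectoderm, had no counterpart in the FS morphant list. The other 3 wild-type peaks overlapped an FS morphant peak, as did 40.2% of all 2909 FSE peaks and 44.1% of all wild-type ectoderm peaks. The *dlx3* counterpart was lost when overlap had to cover 50% of each peak and in the stronger 50% of each list, and the *dlx5* −0.3 kb counterpart when summits had to lie within 250 bp. The −17.6 kb counterpart was found under each of these choices. In the bins of these 4 elements, stronger FSE peaks more often had a counterpart. With the list split into 10 equal bins by −log10 p, 74.0% of FSE peaks overlapped a morphant peak in the bin of *dlx5* −17.6 kb, 59.3% for *dlx5* −0.3 kb, 43.5% for *dlx3* +5.1 kb and 26.1% for *dlx5* +5.1 kb. The peak without a morphant counterpart was thus the weakest of the 4, in a bin where most FSE peaks had none.

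All 3 ectoderm elements with Ep300 in both lists had a lower fold enrichment in FS morphants. A lower value was the commoner outcome for FSE peaks found in both lists, whose median log2 ratio was −0.09. Over all peaks found in both lists the median was 0.08. The *dlx3* +5.1 kb element had 7.31 in FS morphant ectoderm and 12.4 in wild-type ectoderm, a ratio of 0.587 (−0.77 on the log2 scale). Its −log10 p was 37.9 in FS morphants (rank 2883 of 3593) and 96.4 in wild-type (rank 1609 of 5552), and the peak was 399 bp wide in FS morphants and 1001 bp in wild-type. This was the lowest ratio of the 3, and 7.55% of all 2451 peaks found in both lists, or 13.8% of the 1168 FSE peaks among them, had a lower one. Only 40.2% of all 2909 FSE peaks had a morphant counterpart. Those without one have no ratio and are left out of this share and of those below.

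The *dlx5* −17.6 kb element had 13.7 in FS morphant ectoderm and 19.7 in wild-type ectoderm, a ratio of 0.697 (−0.52 on the log2 scale), with 24.1% of FSE peaks lower. Its rank was 604 of 3593 in FS morphants and 169 of 5552 in wild-type. It was still the strongest FS morphant Ep300 peak of the 2 genes. The *dlx5* −0.3 kb element had 11.3 in FS morphant ectoderm and 13.8 in wild-type ectoderm, a ratio of 0.817 (−0.29), with 38.4% of FSE peaks lower. Its FS morphant and wild-type summits lay 602 bp apart, so this ratio does not compare the same position. FSE peaks found in both lists had a median ratio of 0.937 (−0.09, with the middle 50% from −0.51 to 0.24), so the −0.3 kb element was inside that middle range, the −17.6 kb element just below it and *dlx3* +5.1 kb farther below. The median over all peaks found in both lists was 1.06, but it covers only the 44.1% of wild-type peaks with a morphant counterpart. The list medians, 9.40 in FS morphants and 8.76 in wild-type, come from lists of unequal length (3593 and 5552 peaks) and are not a comparison of the same sites.

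**Figure D4:**
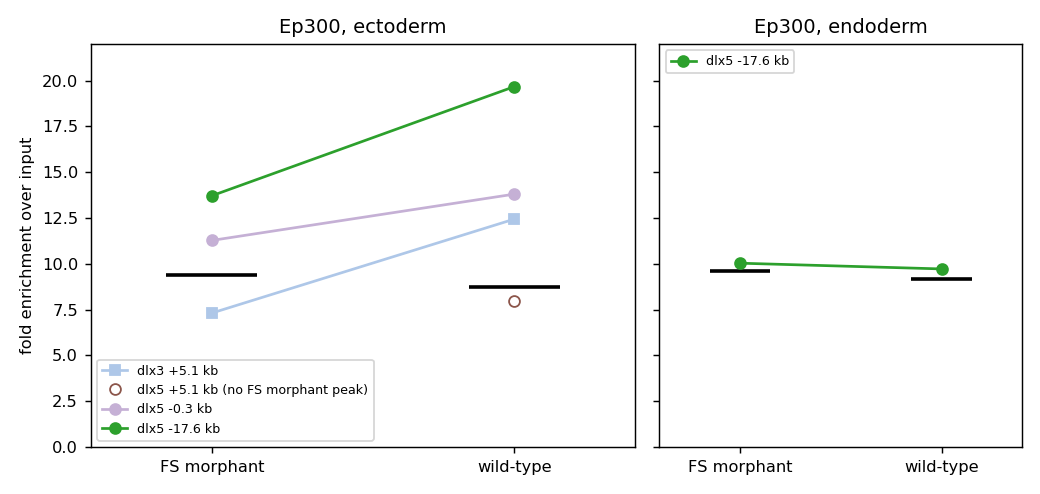
Ep300 fold enrichment over input at the elements of *dlx3* (squares) and *dlx5* (circles), FS morphant beside wild-type, in ectoderm (left) and endoderm (right); the open symbol has no FS morphant peak and black bars are list medians. In ectoderm the 3 joined elements are lower in FS morphants, whereas the endoderm peak has 10.0 in FS morphants and 9.72 in wild-type.

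**Figure D5:**
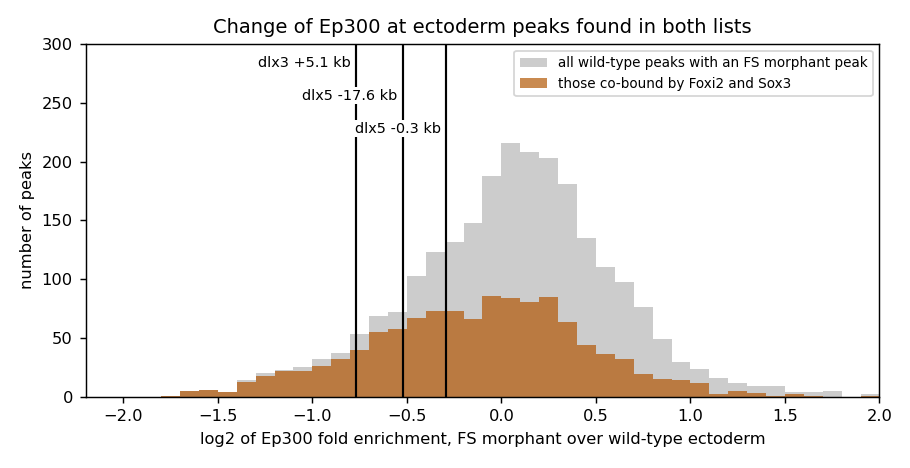
Number of wild-type ectoderm Ep300 peaks by the log2 ratio of FS morphant over wild-type fold enrichment, for the 2451 peaks found in both lists (grey) and the 1168 FSE peaks among them (orange), with the 3 *dlx3* and *dlx5* elements as vertical lines. The lines stand at −0.77, −0.52 and −0.29, all below the FSE median of −0.09. The line at −0.29, of *dlx5* −0.3 kb, compares summits 602 bp apart.

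The Ep300 summit at the *dlx5* −0.3 kb element was also at another place in FS morphants. It lay 979 bp from the gene end in FS morphant ectoderm and 377 bp in wild-type ectoderm, 602 bp apart. The median over 2464 overlapping pairs was 19 bp, and 1.83% of pairs were at least as far apart. The FS morphant summit was 17 bp from the Sox3 summit of wild-type embryos and 64 bp from the weaker Foxi2 summit, whereas the wild-type Ep300 summit was 43 bp from the stronger Foxi2 summit. Peaks of 1241 bp (FS morphant) and 1333 bp (wild-type) covered both positions. At *dlx5* −17.6 kb and *dlx3* +5.1 kb the summits of the 2 lists were 15 and 53 bp apart.

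In endoderm, *dlx3* had no Ep300 peak in FS morphant or wild-type tissue, where 29.5% and 30.0% of genes had one. *dlx5* had 1 peak in each, at −17.6 kb, which also appeared in the first experiment at 6.04 (rank 1640 of 11690), where 32.2% of genes had a peak. It was co-bound by Foxi2 and Sox3, as were 20.3% of wild-type endoderm Ep300 peaks, and 8.5% of genes had such a peak. Fold enrichment was 10.0 in FS morphant endoderm and 9.72 in wild-type endoderm, a ratio of 1.03 (0.046 on the log2 scale), and 50.0% of the 9684 endoderm peaks found in both lists had a lower ratio. Both values were near the list medians of 9.58 and 9.15. Of all wild-type endoderm peaks 83.5% overlapped an FS morphant peak, and of the co-bound ones 85.4%. The ranks, 5602 of 11247 and 5091 of 11597, were mid-list, unlike the ectoderm ranks of the same element. Of wild-type ectoderm Ep300 peaks, 42.3% overlapped a wild-type endoderm peak. An overlap with every other peak list, leaving Sox3 at stage 8 aside, was found for 6.99%. These may include peaks with Sox3 at stage 8, which the −17.6 kb element lacked. Foxi2 and Sox3 were profiled in whole embryos, so their binding in endoderm at this element cannot be told apart from binding in ectoderm. The morpholinos were injected in the animal cap, and how far they lowered either factor in endoderm was not measured here.

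Both genes lay in ectoderm SEs, of unequal rank. The *dlx3* SE ran from 14530376 to 14694378 (164003 bp, 33 stitched peaks that fill 45.3% of it) and ranked 52 of 16257 H3K27ac regions, with a signal of 94793 against the cutoff of 19503. It also covers *dlx4* and part of *itga3*, an integrin gene. The *dlx5* SE ran from 33887081 to 33935129 (48049 bp, 11 stitched peaks that fill 32.4% of it) and ranked 806, with a signal of 25956, closer to the cutoff that 1156 regions passed. It covers *dlx6* too. An ectoderm H3K27ac region lay within 20 kb of 76.3% of genes and over the body of 50.2%, and an SE over the body of 15.1%. The *dlx3* SE held 5 FS morphant and 5 wild-type Ep300 peaks over its length, 2 of the wild-type peaks being FSE peaks, and all 5 overlapped a morphant peak. The *dlx5* SE held 2 FS morphant and 3 wild-type Ep300 peaks, all 3 of the wild-type peaks being FSE peaks, and 2 overlapped a morphant peak. Of all wild-type ectoderm Ep300 peaks, 44.1% overlapped one, and of FSE peaks 40.2%.

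Endoderm H3K27ac, from 1 library, was nearly absent from both windows. *dlx5* had no endoderm H3K27ac region, while 73.1% of genes had one within 20 kb, 43.8% over the body and 8.2% as an SE over the body. *dlx3* had 1, of 231 bp (14678775 to 14679005), 8043 bp beyond the gene, at rank 15534 of 17263. An ectoderm SE over the body together with no endoderm H3K27ac over the body occurred at 3.59% of genes, and both genes are among them.

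H3K27me3 differed between the 2 genes. *dlx5* lay in a region of 31658 bp in ectoderm (33897825 to 33929482), rank 203 of 29268, and in a region of 30664 bp in endoderm (33898144 to 33928807), rank 125 of 27207, both above the authors' cutoff, which 243 and 127 regions passed. Regions above the cutoff overlapped the body of 4.76% of genes in ectoderm and 4.73% in endoderm. The endoderm region lies wholly within the ectoderm one and spans 96.9% of it. The ectoderm H3K27me3 region lies wholly within the ectoderm SE, so *dlx5* and *dlx6* lay in above-cutoff regions of both marks in ectoderm, as did 1.39% of genes. Both regions are stitched: the SE joins 11 peaks that fill 32.4% of it, and the ectoderm H3K27me3 region joins 5 loci. Their overlap therefore does not show both marks at the same positions or over each gene body. All 35 Foxi2, Sox3 and Ep300 peaks of *dlx5* fall in this shared stretch. Only 38 of 5552 wild-type ectoderm Ep300 peaks (0.684%) were in both an ectoderm SE and an H3K27me3 region above cutoff, and 3 of the 38 belong to *dlx5*. In dissected tissue, both marks on the same chromosomes cannot be told apart from each mark in different cells. *dlx3* had no H3K27me3 over its body in either tissue, while 50.4% of genes had it in ectoderm and 48.1% in endoderm. Within 20 kb, 87.8% of genes had such a region in ectoderm and 85.8% in endoderm. The only *dlx3* region, in ectoderm, ran from 14678728 to 14691363, 7996 bp beyond the gene, at rank 8821 and below the cutoff.

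Among the 6 Dlx genes, *dlx5* and *dlx6* share every count. *dlx4*, the partner of *dlx3*, had 1 Foxi2 peak at stage 8 and 1 at stage 10.5, and no Sox3 or Ep300 peak. Over its body it had an ectoderm SE, endoderm H3K27ac below the cutoff, and H3K27me3 below the cutoff in both tissues. Endoderm H3K27ac lay over the body of 43.8% of all genes. *dlx1* and *dlx2*, on chromosome 9 with overlapping windows, each had 1 ectoderm Ep300 peak within 20 kb in FS morphants and 1 in wild-type. Whether the 2 genes share these peaks was not examined here. Neither gene had an FSE peak in wild-type ectoderm, as these genes had no Foxi2 peak at stage 10.5 and 1 Sox3 peak each. They had no ectoderm H3K27ac over the body and were in H3K27me3 regions above cutoff in both tissues. An ectoderm SE thus covered 4 of the 6 genes and an endoderm SE covered 0, against 15.1% and 8.2% of all genes. H3K27me3 above cutoff covered 4 in ectoderm and 4 in endoderm, against 4.76% and 4.73%. The genes in both kinds of ectoderm region were *dlx5* and *dlx6*. These counts are not of independent genes, since *dlx3* and *dlx4* share an SE, and *dlx5* and *dlx6* share an SE and an H3K27me3 region.

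Among 10 other regulators of nonneural ectoderm (*tfap2a*, *tfap2c*, *gata2*, *gata3*, *foxi1*, *tp63*, *grhl1*, *grhl3*, *msx1* and *msx2*), 7 had an Ep300 peak within 20 kb in FS morphant ectoderm and 10 in wild-type ectoderm, and 9 had an FSE peak. Over all genes these shares were 13.9%, 17.9% and 9.78%. At stage 8, 10 had Foxi2 (33.8% of all genes) and 2 had Sox3, which is near the share of all genes (21.5%). At stage 10.5, 9 had Foxi2 and 10 had Sox3, against 18.9% and 40.1% of all genes. An ectoderm SE covered 6 and an endoderm SE covered 0, against 15.1% and 8.2%. H3K27me3 above cutoff covered 4 in ectoderm and 0 in endoderm, against 4.76% and 4.73%, and *dlx5* had it in both.

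Genes were also ordered by how like their binding pattern was to that of each Dlx gene, by the distance between log2(1 + summed fold enrichment within 20 kb) over the 12 peak lists. Nearest to *dlx5* was *foxi1*, a forkhead regulator of epidermal ionocytes (distance 1.25), followed by *lhx5*, a LIM homeobox gene (1.59), and *morn1* (1.61), against a median of 16.6 over 18126 genes. Nearest to *dlx3* were *alkbh2* and *ung*, neighbouring DNA repair genes whose windows overlap (1.38 and 1.42), and *dip2a* (1.45), against a median of 9.73 over 18125. The 3 genes nearest to *dlx5* had peaks in the same 11 lists as *dlx5*, and the 3 nearest to *dlx3* in the same 6 lists as *dlx3*. This follows from the distance itself, in which a list with a peak at only 1 of 2 genes adds a large gap. *dlx3* and *dlx5* themselves were 11.7 apart. The points share libraries, so the distances describe these lists.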

How the data were processed

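ChIP-seq libraries of *X. tropicalis* embryos were compared as lists. Per the labels, reads were aligned with Bowtie2 2.2.7; the methods name another version. The authors aligned to genome version 10.0, removed duplicates, called peaks with MACS2 against input and selected them by irreproducible discovery rate. H3K27ac and the first Ep300 experiment had 1 library per tissue. The lists of the first Ep300 experiment were therefore not selected across replicate libraries. The 12 deposited peak lists give fold enrichment (a ratio of ChIP over input), −log10 p and the scaled irreproducibility score, which was not used to rank peaks. The 4 deposited histone lists come from ROSE, with H3K27ac peaks within 12 kb stitched. The authors' H3K27ac signal column is headed with the animal library in both tables, and which library ranked the endoderm regions was not settled. H3K27me3 lists give ranks and cutoff calls alone. Positions are as deposited, and peaks are counted from 1.

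Gene spans came from RefSeq for the same assembly (28772 genes on 10 chromosomes). Overlap needed 1 bp. Ranks and 10% bins of strength use −log10 p. Overlaps were computed with Python 3.11.15, numpy 2.4.6 and pandas 2.3.3, and the overlap code was tested on simulated data. Shares over all genes or peaks are background, not tests. The named genes are the Dlx family, the genes in the windows, the regulators listed and the 3 genes nearest in pattern to *dlx3* and to *dlx5*, leaving out overlapping windows and genes named by a locus identifier alone. The members and lists were chosen with earlier results of these data known, and the summit distances and the contents of the SEs were added after seeing the data. Sequence, strand and exons were not used here.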

Additional observations from a re-analysis of the deposited data

Results flagged for a closer look

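The Ep300 peak of the *dlx5* −17.6 kb element had a lower fold enrichment in FS morphants in ectoderm and not in endoderm. The log2 ratio of FS morphant over wild-type was −0.52 in ectoderm (13.7 in FS morphants and 19.7 in wild-type) and 0.046 in endoderm (10.0 in FS morphants and 9.72 in wild-type). It was singled out because the 2 ratios differ in sign. The endoderm ratio equals the median of all 9684 endoderm peaks found in both lists (0.046), and its −log10 p was 76.3 in FS morphants and 83.1 in wild-type, so the 2 endoderm measures differ in direction. The difference between tissues was not tested, since each rests on 1 list per condition. The morpholinos were injected in the animal cap, so the endoderm ratio does not show what Ep300 does without the factors.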

How the results depend on the processing

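Of 118 counts recomputed under another choice, 89 were within 1.5 times the reported count. These include counts of 0 under both choices. With the shorter distance, the stronger part of the lists or the larger overlap, a count of 0 could not change, so the share is not a measure of robustness. Counting within 10 kb left *dlx5* 1 FS morphant ectoderm Ep300 peak and 1 wild-type peak with a morphant counterpart, 0 endoderm Ep300 peaks (FS morphant, wild-type, shared or co-bound), 1, 2 and 3 Foxi2 peaks at stages 8, 9 and 10.5, and 0 and 3 Sox3 peaks at stages 9 and 10.5. Within 50 kb, *dlx3* had 2 Foxi2 and 1 Sox3 peaks at stage 8, 2 endoderm H3K27ac regions, and 4 ectoderm and 2 endoderm H3K27me3 regions, and *dlx5* had 4 ectoderm H3K27ac regions. With the stronger 50% of each list, *dlx3* had 0 FS morphant ectoderm Ep300 peaks, 0 wild-type peaks with a counterpart, 0 co-bound peaks, 0 Foxi2 peaks at stages 8 and 10.5 and 1 Sox3 peak at stage 10.5, and *dlx5* had 3 Foxi2 peaks at stages 9 and 10.5, and 1 and 3 Sox3 peaks at stages 9 and 10.5. When overlap had to cover 50% of each peak, 0 *dlx3* ectoderm peaks had a counterpart, since the FS morphant peak is narrower. With summits within 250 bp, 1 *dlx5* ectoderm peak had one, because of the summit shift at −0.3 kb. Taking the first Ep300 experiment moved none of its 4 co-bound counts beyond 1.5 times. Counting each of the 2 factors at any of the 3 stages could not change its 4 counts, since every wild-type Ep300 peak here was already co-bound.

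No paired analysis was possible because the lists merge replicates, and for the same reason no replicate was left out. The motif search was not run, as no sequence was used here. Depth is unknown here. A list without a peak does not show that a protein was absent.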
